A study of Mus musculus with 6 samples.

Results

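The adipocyte genes are 10 genes that fat cells use to store lipid and to signal: Adipoq, Lep, Retn and Cfd, which encode secreted proteins, Plin1, Cidec and Plin4, which encode proteins of the lipid droplet, Fabp4 and Lpl, which encode proteins of fatty acid handling, and Pparg, which encodes a transcription factor. They were chosen by gene symbol, and all 10 were found among the 27179 genes counted. All 10 were also among the 16306 genes that passed the filter on low counts, where both mates of a read pair counted. RNA sequencing had been done on 6 mouse samples in 3 groups of n = 2. The H7 tumours grew from PANC02-H7 cells and the UNKC tumours from UN-KC-6141 cells, which are mouse pancreatic cancer cell lines, after surgical injection into the pancreas of C57BL/6 mice, and were removed at day 20. The third group was normal whole pancreas of C57BL/6 mice, no mouse was treated, and each tumour group stands for 1 cell line. The labels do not say whether the replicates came from separate mice, so that p-values measure the spread between these samples only.

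White adipocytes hold a single large droplet of triglyceride. Perilipins coat the droplet and control the access of lipases, and CIDEC, a protein of droplet contact sites, makes droplets fuse. PPARγ together with C/EBP factors drives the genes of the mature fat cell, which also secretes adiponectin, leptin and adipsin into the blood. Pancreas that is dissected whole commonly carries some fat. FABP4 is also made by capillary endothelium and macrophages, LPL by muscle and macrophages, and perilipin 4 by skeletal muscle.

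Promoters are shown for 3 genes that were low in both tumour groups and for Pparg, which was not, as the 250 bases before the start site (RefSeq, GRCm38.p6, 5′ to 3′ on the strand of the gene). Capitals mark matches on either strand to TTGCNNAA, the core of a C/EBP site.
Adipoq, chr16:23146286-23146535, + strand: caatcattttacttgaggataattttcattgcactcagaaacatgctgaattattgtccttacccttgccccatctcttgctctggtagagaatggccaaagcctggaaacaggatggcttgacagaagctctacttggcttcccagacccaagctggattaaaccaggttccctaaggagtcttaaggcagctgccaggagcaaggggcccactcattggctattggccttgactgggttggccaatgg
Lep, chr6:29059971-29060220, + strand: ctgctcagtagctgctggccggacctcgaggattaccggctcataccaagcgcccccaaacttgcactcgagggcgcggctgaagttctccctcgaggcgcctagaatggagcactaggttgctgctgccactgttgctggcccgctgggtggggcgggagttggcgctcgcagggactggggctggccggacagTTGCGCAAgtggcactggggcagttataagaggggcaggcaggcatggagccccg
Plin1, chr7:79732777-79733026, - strand: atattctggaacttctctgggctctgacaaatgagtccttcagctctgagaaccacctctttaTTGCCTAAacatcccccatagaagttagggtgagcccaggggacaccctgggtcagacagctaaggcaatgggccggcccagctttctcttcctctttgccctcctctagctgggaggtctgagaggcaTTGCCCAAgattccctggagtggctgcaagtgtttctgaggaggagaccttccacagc
Pparg, the third start site, chr6:115421816-115422065, + strand: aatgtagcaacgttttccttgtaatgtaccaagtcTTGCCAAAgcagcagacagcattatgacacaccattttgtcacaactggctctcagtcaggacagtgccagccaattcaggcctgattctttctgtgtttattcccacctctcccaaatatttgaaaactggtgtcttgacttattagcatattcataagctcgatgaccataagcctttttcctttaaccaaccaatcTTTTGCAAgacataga
The RefSeq table held 11 promoters of 8 of the 10 genes, with Fabp4 and Lpl not among them, each with 250 bases before and 50 after the start. TTGCNNAA was present in 4 of these 11 promoters, those of Cidec, Lep and Plin1 and the third start site of Pparg, and in 10.8% of all 32851 promoters of the table. The palindrome TTGCGCAA, which is a case of TTGCNNAA, was present in the Lep promoter, where it begins 55 bases before the start, and in 0.183% of all promoters. AGGTCANAGGTCA, a direct repeat of the kind that PPARγ with RXR binds, was in 0 of the 11 and in 0.0396% of all promoters. These matches describe the letters in the window only.

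The libraries differed in ways that bear on every value. Total counts were 33332516 and 36307030 reads in H7 tumours, 40507546 and 38728423 in UNKC tumours, and 12077320 and 8204225 in normal pancreas, where 86.4% and 85% of reads were ribosomal RNA, against 20.1% to 27.8% in the tumours. Levels are therefore given as CPM, read counts scaled to the library size after TMM scaling, and 1 CPM stands for few reads in normal pancreas. Markers of skeletal muscle summed to 672 and 2354 CPM in replicate 2 of H7 and UNKC tumours, against 1.78 and 1.22 CPM in their replicates 1. Acinar markers were at 27.5 and 34.1 CPM in H7 tumours and 10.04 and 3.64 CPM in UNKC tumours, against 10728 and 10215 CPM in normal pancreas, as that label implies. In bulk tissue, fewer fat cells and less RNA per fat cell cannot be told apart.

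Most adipocyte genes were far lower in the tumours than in normal pancreas. In H7 tumours, 8 of 10 were lower and 0 higher, where 21.9% of all tested genes were called lower and 29.6% higher. In UNKC tumours, 7 of 10 were lower, where 19.3% of all genes were, and 1, Pparg, was higher, where 29.1% of all genes were. Called means a Benjamini-Hochberg adjusted p under 0.05 in the edgeR quasi-likelihood test over all 16306 genes. Adipoq, Lep, Retn, Plin1 and Cidec passed the filter on low counts only through their reads in normal pancreas. They could hardly be called other than lower in the tumours, so their calls are not independent of the filter. The counts without overlap share this limit. The count lower in H7 tumours rests on reads, with both mates of a pair counted. It was 7 with halved counts and 6 with the authors' fragment counts, against 9 when fitted to the 4 libraries compared. Lep had no test in H7 tumours with halved or fragment counts, and Cidec and Retn had none with fragment counts. The count higher in H7 tumours was 0 also at an unadjusted p under 0.05, where 32.7% of all genes were higher, and with DESeq2, where 31.5% were. Without overlap between the groups, 9 of 10 genes were lower and 0 higher in H7 tumours, where 29.9% of all genes were lower and 47% higher, and 9 of 10 were lower and 1 higher in UNKC tumours, where 28.3% were lower and 48.3% higher. In the authors' deposited tables, at an adjusted p under 0.05, 9 were lower and 0 higher in H7 tumours (24.7% and 24.5% of all genes) and 9 lower and 1 higher in UNKC tumours (23.5% and 23.9% of all genes). The 10 genes together summed to 17.3 and 20.3 CPM in H7 tumours and 28.4 and 54.9 CPM in UNKC tumours, against 178 and 369 CPM in normal pancreas. The median log2 fold change of the 10 was −7.07 in H7 tumours, with genes without reads put at their bound, beside 0.34 over all genes, and −4.37 in UNKC tumours, beside 0.42 over all genes.

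**Figure D1:**
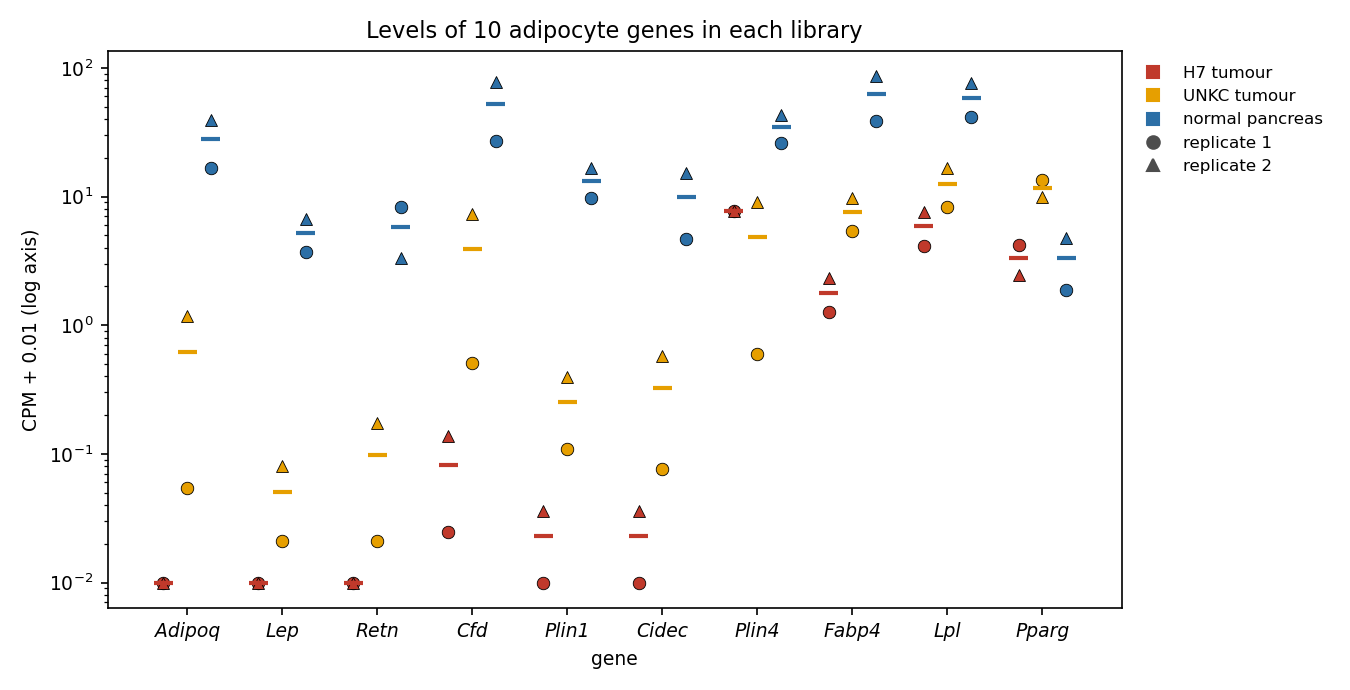
Level of each adipocyte gene in each of the 6 libraries, as CPM + 0.01 on a log axis and not divided by gene length. Points are libraries (circle for replicate 1, triangle for replicate 2) and short lines are means of n = 2. In normal pancreas 9 of the 10 genes lie above both tumour groups, Pparg is the exception, and Adipoq, Lep and Retn lie at 0 in both H7 tumours.

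Adipoq encodes adiponectin, a hormone made almost only by adipocytes. It had 0 and 0 reads in H7 tumours and 4 and 100 reads in UNKC tumours, against 36 and 82 reads in normal pancreas, from far smaller normal libraries. In CPM this was 0 and 0 in H7 tumours and 0.0443 and 1.17 in UNKC tumours, against 16.7 and 39.1 in normal pancreas. Both tumour groups lay wholly below normal pancreas, and the H7 tumours lay below the UNKC tumours. Against a floor of 3 read pairs over the H7 group, which is 0.0408 CPM, its level in H7 tumours was at least 683-fold lower (adjusted p = 0.00712). In UNKC tumours it fell by 5.52 ± 1.34 on the log2 scale (SE, adjusted p = 0.023). A fit that leaves out 1 library leaves its group with a single one, which is then assumed to vary like the other groups. In such fits that call was lost when normal replicate 1 (−5.99, adjusted p = 0.0579) or normal replicate 2 (−4.75, adjusted p = 0.108) was left out, and it was also lost with total counts as library sizes (−2.25, adjusted p = 0.159).

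Lep encodes leptin, the adipocyte hormone that reports fat stores to the brain. It had 0 and 0 reads in H7 tumours and 1 and 6 reads in UNKC tumours, against 8 and 14 reads in normal pancreas. That corresponds to 0 CPM in both H7 tumours and 0.0111 and 0.0703 CPM in UNKC tumours, against 3.70 and 6.68 CPM in normal pancreas. Leptin RNA was thus low in the normal samples too, at 22 reads over both, and nearly absent from the reads of all 4 tumours. It was at least 127-fold lower in H7 tumours (adjusted p = 0.00186) and fell by 6.94 ± 0.91 on the log2 scale in UNKC tumours (adjusted p = 0.00274).

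Retn encodes resistin, in mice a product of fat cells. It had 0 and 0 reads in H7 tumours and 1 and 14 reads in UNKC tumours, against 18 and 7 reads in normal pancreas. Its CPM was 0 in both H7 tumours and 0.0111 and 0.164 in UNKC tumours, against 8.33 and 3.34 in normal pancreas. Retn was the one gene of the 10 that was higher in normal replicate 1 than in normal replicate 2. It was at least 143-fold lower in H7 tumours (adjusted p = 0.00482) and fell by 6.05 ± 1.11 on the log2 scale in UNKC tumours (adjusted p = 0.00925), where total counts as library sizes gave −2.63 (adjusted p = 0.0586).

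Cfd encodes adipsin, also known as complement factor D, a protease of the alternative complement pathway that mouse fat secretes in large amounts. Its CPM was 0.0145 and 0.128 in H7 tumours, from 1 and 10 reads, and 0.498 and 7.27 in UNKC tumours, from 45 and 621 reads, against 26.8 and 77.8 in normal pancreas. The H7 tumours lay below the UNKC tumours, and both below normal pancreas. In H7 tumours Cfd fell by 9.42 ± 1.72 on the log2 scale (adjusted p = 0.00542), but without H7 replicate 1 the adjusted p was 0.0515. In UNKC tumours the log2 fold change was −3.75 ± 1.25 and missed the threshold (adjusted p = 0.0502), and without UNKC replicate 2 it was −6.68 and passed it (adjusted p = 0.00437). The authors' deposited table gives Cfd in UNKC tumours a log2 fold change of −2.93 with an adjusted p of 0.00819.

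Plin1 encodes perilipin 1, which coats the large droplets of fat cells and gates hormone-driven lipolysis. It had 0 and 2 reads in H7 tumours and 9 and 33 reads in UNKC tumours, against 21 and 35 reads in normal pancreas. Its CPM was 0 and 0.0257 in H7 tumours and 0.0997 and 0.386 in UNKC tumours, against 9.72 and 16.7 in normal pancreas. A single read pair in H7 tumours put the fold at 932-fold lower, with a 95% exact binomial interval of 154 to 38167 that covers counting error only (adjusted p = 0.000345). Plin1 fell by 5.76 ± 0.76 on the log2 scale in UNKC tumours (adjusted p = 0.000847).

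Cidec encodes the droplet fusion protein that keeps the fat droplet single and large. It had 0 and 2 reads in H7 tumours and 6 and 48 reads in UNKC tumours, against 10 and 32 reads in normal pancreas. Its CPM was 0 and 0.0257 in H7 tumours and 0.0665 and 0.562 in UNKC tumours, against 4.63 and 15.3 in normal pancreas. As with Plin1, the 3 groups did not overlap and H7 tumours were lowest. The fold in H7 tumours was 725-fold lower, with an interval of 117 to 29984 by the same method (adjusted p = 0.00141), and Cidec fell by 4.98 ± 1.02 on the log2 scale in UNKC tumours (adjusted p = 0.00543). The UNKC value was −3.85 without normal replicate 2 (adjusted p = 0.0805) and −1.71 with total counts as library sizes (adjusted p = 0.159).

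Plin4 encodes perilipin 4, which binds small nascent droplets. Unlike Plin1, it kept many reads in the tumours, with 535 and 605 reads in H7 tumours and 53 and 779 reads in UNKC tumours, against 56 and 90 reads in normal pancreas. Its CPM was 7.75 and 7.77 in H7 tumours and 0.587 and 9.12 in UNKC tumours, against 25.9 and 42.9 in normal pancreas. The H7 replicates nearly coincided while the UNKC replicates stood on either side of them. The log2 fold change was −2.15 ± 1.09 in H7 tumours (adjusted p = 0.151) and −2.83 ± 1.12 in UNKC tumours (adjusted p = 0.0837), and with total counts as library sizes both turned positive, at 1.08 in H7 tumours and 0.47 in UNKC tumours. In H7 tumours the comparison passed the threshold when fitted to the 4 libraries compared (−2.26, adjusted p = 0.00209). In UNKC tumours it passed without either UNKC replicate, at −1.89 without replicate 1 (adjusted p = 0.0173) and −5.84 without replicate 2 (adjusted p = 0.00105). The authors' deposited table gives log2 fold changes of −2.23 in H7 tumours, with an adjusted p of 2.72e-12, and −1.80 in UNKC tumours, with an adjusted p of 0.0438.

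Fabp4 encodes the fatty acid binding protein that carries fatty acids through the cytoplasm. It had 86 and 179 reads in H7 tumours and 483 and 831 reads in UNKC tumours, against 84 and 181 reads in normal pancreas. Its CPM was 1.25 and 2.30 in H7 tumours and 5.35 and 9.73 in UNKC tumours, against 38.9 and 86.4 in normal pancreas, so the groups stood in 3 separate steps. Fabp4 fell by 5.14 ± 0.58 on the log2 scale in H7 tumours (adjusted p = 0.000919) and the log2 fold change in UNKC tumours was −3.05 ± 0.53 (adjusted p = 0.00463), while with total counts as library sizes the UNKC value was 0.21. Markers of endothelium summed to 69.7 and 97.5 CPM in H7 tumours and 118 and 176 CPM in UNKC tumours, against 159 and 189 CPM in normal pancreas, the same order as Fabp4 among the 4 tumour libraries. Their part in the Fabp4 values was not tested.

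Lpl encodes lipoprotein lipase, which releases fatty acids from circulating triglyceride. Its CPM was 4.11 and 7.61 in H7 tumours and 8.32 and 16.5 in UNKC tumours, against 41.2 and 75.9 in normal pancreas. These came from 284 and 593 reads in H7 tumours and 751 and 1411 reads in UNKC tumours, against 89 and 159 reads in normal pancreas. All tumour libraries were below both normal libraries. Lpl fell by 3.32 ± 0.52 on the log2 scale in H7 tumours (adjusted p = 0.00296) and the log2 fold change in UNKC tumours was −2.24 ± 0.49 (adjusted p = 0.0118), and with total counts as library sizes the values were −0.10 in H7 tumours and 1.05 in UNKC tumours. Leaving out UNKC replicate 1 gave −1.80 in UNKC tumours (adjusted p = 0.0549), and leaving out normal replicate 2 gave −1.70 (adjusted p = 0.0609), so that either step ended the call. Of 12 macrophage markers, 9 rose and 2 fell in H7 tumours and 8 rose and 1 fell in UNKC tumours. Among all genes 29.6% rose and 21.9% fell in H7 tumours, and 29.1% rose and 19.3% fell in UNKC tumours. The macrophage sums were 1042 and 885 CPM in H7 tumours and 493 and 480 CPM in UNKC tumours, against 129 and 217 CPM in normal pancreas. The part of macrophages in the Lpl values was not tested.

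Pparg encodes PPARγ, the nuclear receptor on which fat cell differentiation depends, and it did not follow the other genes. Its CPM was 4.19 and 2.47 in H7 tumours and 13.4 and 9.92 in UNKC tumours, against 1.85 and 4.77 in normal pancreas, where 4 and 10 reads stood behind it. UNKC tumours lay above both other groups, and H7 tumours overlapped normal pancreas. The log2 fold change was 1.82 ± 0.51 in UNKC tumours (adjusted p = 0.0281), a rise that missed the threshold at 1.61 without UNKC replicate 1 (adjusted p = 0.103) and at 1.31 when normal replicate 1 was left out (adjusted p = 0.0985). In H7 tumours it was 0.01 ± 0.54 (adjusted p = 0.99), with a sign that changed between scalings and a rise of 3.26 with total counts as library sizes (adjusted p = 0.00204).

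**Figure D2:**
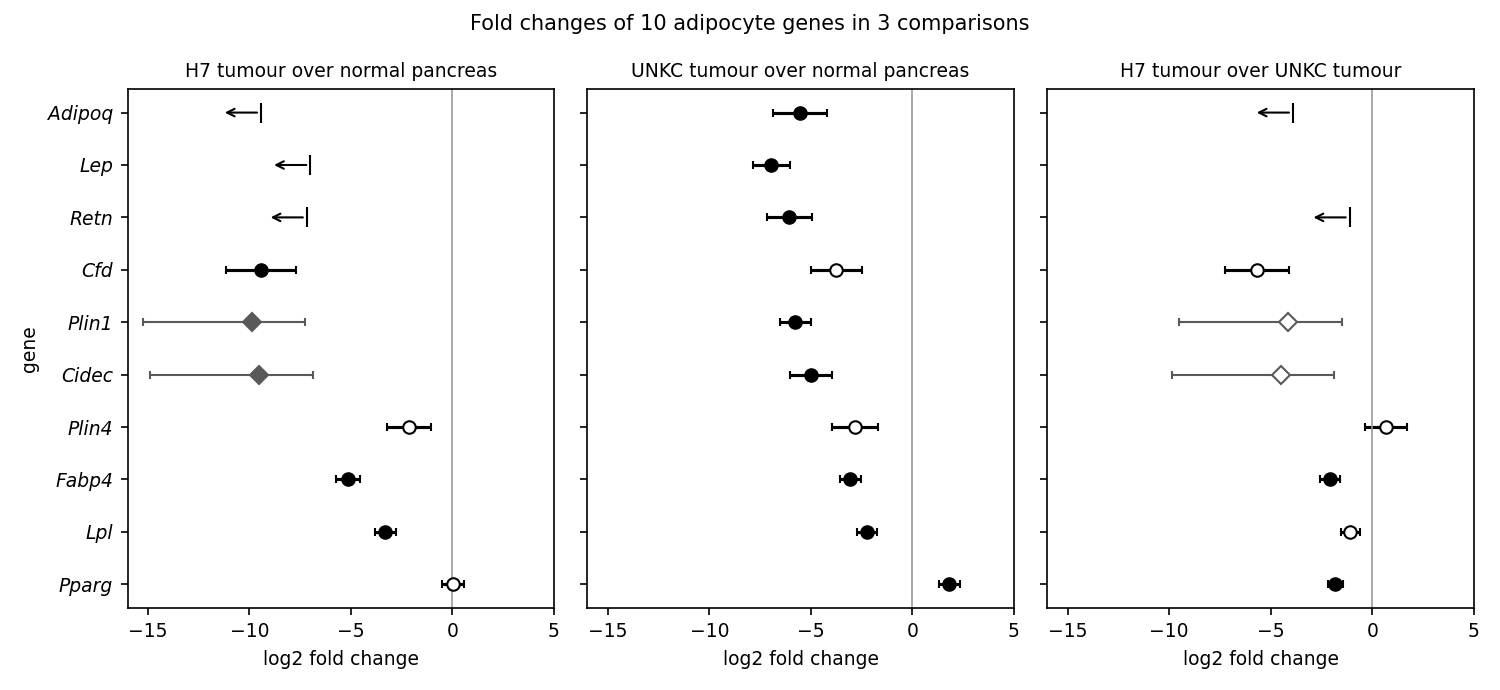
Log2 fold change of each adipocyte gene in the 3 comparisons. Circles are edgeR estimates with the SE, diamonds are ratios that rest on 1 read pair with their 95% counting interval, ticks with an arrow are bounds for genes without reads in H7 tumours, and filled symbols have an adjusted p under 0.05 (Lep has no fold between the tumours). Most genes lie left of 0 against normal pancreas (with total counts as library sizes, Plin4 in both tumour groups and Fabp4 and Lpl in UNKC tumours lie right of it), and only Fabp4 and Pparg are filled between the tumours.

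Between the tumour kinds the direct test asks whether H7 tumours held less of these RNAs than UNKC tumours. Fabp4 and Pparg passed, so that 2 of 10 genes were lower in H7 tumours, where 11.1% of all genes were, and 0 were higher, where 7.06% of all genes were. At an unadjusted p under 0.05 the counts were 6 lower and 0 higher, where 18.3% and 13.9% of all genes were, and DESeq2 called 7 lower and 0 higher, where 16.5% and 16.7% of all genes were. Without overlap between the groups, 9 of 10 genes were lower and 0 higher in H7 tumours, where 35.9% of all genes were lower and 34.5% higher. For Lep and Retn this separation rests on 1 read each in UNKC replicate 1, and for Adipoq on 4, against 0 in both H7 tumours. Fabp4 averaged 1.77 ± 0.744 CPM in H7 tumours and 7.54 ± 3.10 CPM in UNKC tumours (SD, n = 2 each), a log2 fold change of −2.09 ± 0.51 (adjusted p = 0.04). Pparg averaged 3.33 ± 1.22 CPM in H7 tumours and 11.7 ± 2.49 CPM in UNKC tumours, a log2 fold change of −1.81 ± 0.38 (adjusted p = 0.0262). Without any 1 of the 4 tumour libraries, the Fabp4 call was lost, at adjusted p between 0.0587 and 0.261. The Pparg call was kept without UNKC replicate 2 (adjusted p = 0.0397) and lost without each other tumour library, at adjusted p between 0.113 and 0.151.

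For the other 8 genes the difference between H7 and UNKC tumours missed the threshold. The median log2 fold change of all 10, with genes without reads at their bound, was −1.95, beside −0.02 over all genes. Cfd came to −5.67 ± 1.57 on the log2 scale (adjusted p = 0.0575). Plin1 was 17.6-fold lower, with a counting interval of 2.83 to 726 (adjusted p = 0.0572), and Cidec 22.6-fold lower, with an interval of 3.72 to 925 (adjusted p = 0.0964). Adipoq was at least 14.9-fold and Retn at least 2.14-fold lower against the H7 floor (adjusted p = 0.122 and 0.216), and Lep allowed no fold, since its UNKC level was close to that floor. Lpl came to −1.08 ± 0.47 (adjusted p = 0.179). Plin4 came to 0.68 ± 1.02 (adjusted p = 0.718), and without UNKC replicate 2 it was higher in H7 tumours by 3.71 on the log2 scale (adjusted p = 0.00592). Without UNKC replicate 1, Adipoq, Cfd, Plin1 and Cidec passed, with adjusted p between 0.0201 and 0.0461. Without UNKC replicate 2 these 4 did not pass, with adjusted p between 0.162 and 0.53, and Cfd came to −2.71.

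The replicates of UNKC tumours differed widely in these genes. Replicate 2 exceeded replicate 1 by 26.4 times for Adipoq, 15.5 for Plin4, 14.8 for Retn, 14.6 for Cfd, 8.46 for Cidec, 6.34 for Lep and 3.88 for Plin1. Those 7 of 10 genes passed a ratio of 3, a limit chosen after the values were seen, against 3.36% of all genes with reads in UNKC replicate 1. The ratios of Retn and Lep rest on 1 read each in replicate 1, and that of Adipoq on 4. Lpl and Fabp4 came to ratios of 1.99 and 1.82, and Pparg to 0.738. UNKC replicate 2 was also the library with the most skeletal muscle RNA. H7 replicate 2, which had muscle RNA too, held 0 reads of Adipoq, Lep and Retn and 2 of Plin1, and its Plin4 level equalled that of replicate 1. Its Cfd level was 8.86 times that of H7 replicate 1, from 10 reads against 1, and its Lpl and Fabp4 levels were 1.85 and 1.84 times as high. The part of the muscle in these values was not tested.

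**Figure D3:**
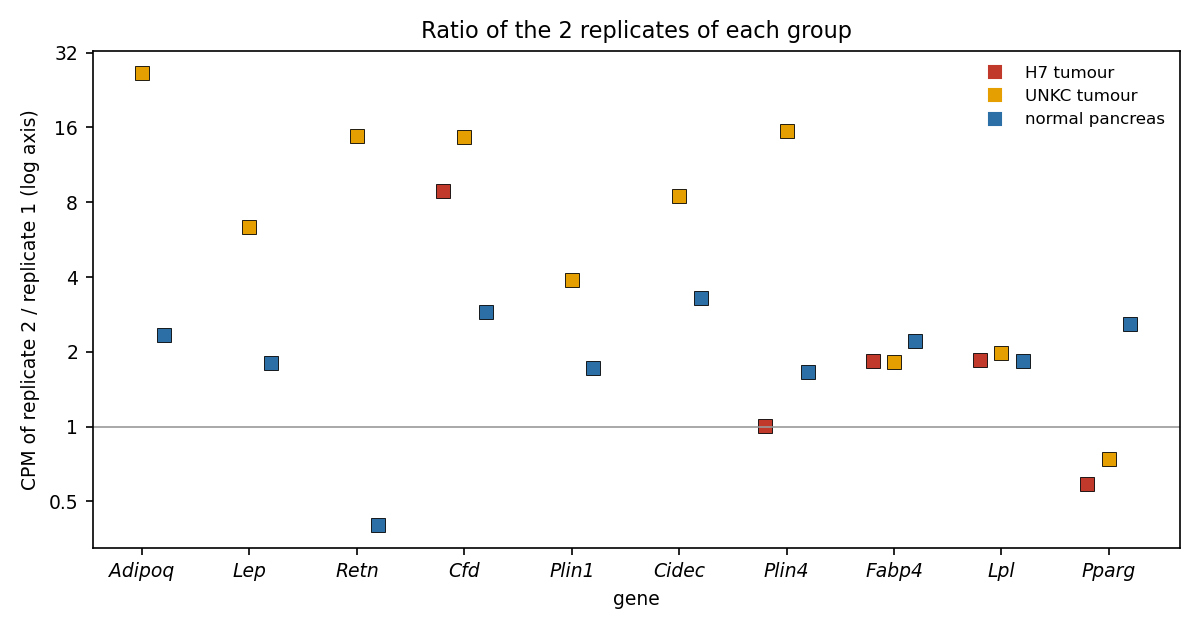
CPM of replicate 2 over replicate 1 for each adipocyte gene in each group, on a log axis. A square is missing where a replicate had no read. The UNKC ratios run from 0.738 for Pparg to 26.4 for Adipoq, whereas the normal pancreas ratios run from 0.401 for Retn to 3.30 for Cidec.

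The genes also differed in their ratios to Adipoq, which had only 4 reads in UNKC replicate 1. In UNKC tumours there were 188 and 14.1 Lpl reads for each Adipoq read, against 2.47 and 1.94 in normal pancreas. For Fabp4 the numbers were 121 and 8.31 in UNKC tumours, against 2.33 and 2.21 in normal pancreas. For Plin1 they were 2.25 and 0.33 in UNKC tumours, against 0.583 and 0.427 in normal pancreas. Fabp4, Lpl, Plin4, Cfd, Cidec and Pparg had more reads per Adipoq read in both UNKC tumours than in either normal sample. For Cfd these were 11.2 and 6.21 in UNKC tumours, against 1.61 and 1.99 in normal pancreas. The Plin1 and Lep ratios of UNKC tumours lay on either side of the normal ones, and those of Retn between them.

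Levels between genes were compared per kilobase of the gene length in the authors' tables. In normal pancreas Fabp4 led with 60.6 and 135 CPM per kb, followed by Cfd with 29.1 and 84.3, Adipoq with 13.5 and 31.8 and Lpl with 10.2 and 18.7. Plin1, Plin4, Cidec and Retn followed between 2.60 and 8.97 CPM per kb, with overlapping replicates. Pparg (0.933 and 2.40) and Lep (1.14 and 2.05) were lowest and overlapped each other. In H7 tumours 4 genes were above 1 CPM per kb, namely Fabp4 (1.94 and 3.58), Pparg (2.11 and 1.24), Lpl (1.02 and 1.88) and Plin4 (1.35 in both). The range of Fabp4 lay above those of Lpl and Plin4 and overlapped that of Pparg, which overlapped Lpl and Plin4. Lpl is understated beside the other genes, with 1.36 and 1.45 reads per fragment in H7 tumours, where the median over genes was 2. In the authors' TPM, computed from fragment counts and gene length, Fabp4 (8.24 and 15.5) and Lpl (6.35 and 11.2) overlapped in H7 tumours. In normal pancreas, Adipoq (5.20 and 13.6) and Lpl (5.53 and 11.2) overlapped in TPM as well. In UNKC tumours Fabp4 (8.33 and 15.2) and Pparg (6.77 and 4.999) were the highest 2 in replicate 1, whereas in replicate 2 Cfd, at 7.88, stood between them. In the authors' TPM of UNKC replicate 2, Lpl (27.2) also stood above Pparg (24.5), below Fabp4 (72.5) and Cfd (37.6).

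Across the 6 libraries, Pearson's r between the log2 CPM of a gene and the mean of the other 9 was 0.998 for Cidec, 0.996 for Adipoq, 0.993 for Plin1, 0.987 for Lpl and 0.980 for Fabp4. It was 0.968 for Lep, 0.965 for Cfd, 0.958 for Retn, 0.666 for Plin4 and −0.267 for Pparg. These are descriptions over 6 libraries that share 3 groups. The 5 other genes most like the mean of the 10, among 8621 genes of at least 10 CPM in some group, were Pdzd2 (r = 0.999), Cyp2e1 (0.996), Fastk, Cmah and Pnpla2 (0.993 each). Of those 8621 genes, 257 had an r of 0.95 or more. Cyp2e1, a cytochrome P450, had 0 and 0.0257 CPM in H7 tumours and 0.111 and 0.492 CPM in UNKC tumours, against 8.33 and 24.8 CPM in normal pancreas. Pnpla2 encodes adipose triglyceride lipase and spanned a narrow range, with 10.4 and 11.3 CPM in H7 tumours and 11.6 and 14.3 CPM in UNKC tumours, against 18.1 and 21.9 CPM in normal pancreas.

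Further markers of white fat fell in part. Of 16 further white adipocyte markers 14 were tested. In H7 tumours 9 were lower and 0 higher, beside 21.9% of all genes called lower and 29.6% higher. In UNKC tumours 7 were lower and 0 higher, beside 19.3% and 29.1% of all genes. The other 5 in H7 tumours and 7 in UNKC tumours missed the threshold. At an unadjusted p under 0.05 the counts higher were also 0. Their median log2 fold changes were −4.75 in H7 tumours and −2.89 in UNKC tumours, beside 0.34 and 0.42 over all genes. Acvr1c, a receptor of the activin family found in fat, fell by 8.02 ± 0.89 on the log2 scale in H7 tumours (adjusted p = 0.000876) and had −6.74 ± 0.81 in UNKC tumours (adjusted p = 0.00124). Lgals12, a galectin on fat droplets, had −6.87 ± 0.47 in H7 tumours (adjusted p = 0.000204) and −6.61 ± 0.46 in UNKC tumours (adjusted p = 0.000223). Some markers went the other way without passing, and are named after their values were seen. Slc2a4 had 76 reads in H7 and 323 in UNKC tumours, against 0 in normal pancreas. Sncg averaged 3.68 CPM in H7 tumours against 1.42 CPM in normal pancreas, and Cidea 0.959 CPM in UNKC tumours against 0.463 CPM. Between the tumours Sncg was higher in H7 tumours, by 2.04 ± 0.37 on the log2 scale (adjusted p = 0.014). That list had 1 higher and 2 lower, beside 7.06% and 11.1% of all genes.

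The perilipin family split in 2 directions. Plin2 coats the small droplets of most cell types, and its level was 134 and 106 CPM in H7 tumours and 76.9 and 63.0 CPM in UNKC tumours, against 9.72 and 10.5 CPM in normal pancreas. It rose by 3.57 ± 0.21 on the log2 scale in H7 tumours (adjusted p = 0.000156) and by 2.79 ± 0.20 in UNKC tumours (adjusted p = 0.000259). Plin3, also widely expressed, rose by 1.49 ± 0.15 in H7 tumours (adjusted p = 0.000633) and 1.32 ± 0.15 in UNKC tumours (adjusted p = 0.00101). Plin5, known from oxidative tissue, fell by 3.95 ± 0.86 in H7 tumours (adjusted p = 0.0104) and had −2.91 ± 0.79 in UNKC tumours (adjusted p = 0.0252), and with total counts as library sizes its UNKC value was 0.47. Plin3 and Plin5 were added after their values were seen, to complete the family with Plin1 and Plin4. Per kilobase, Plin2 and Plin3 averaged 63.6 and 18.6 CPM in H7 tumours and 37.1 and 16.6 CPM in UNKC tumours, where Plin1 was at most 0.202 CPM in any tumour library. The Plin5 call in H7 tumours was lost without normal replicate 1 (adjusted p = 0.0711), and that in UNKC tumours without H7 replicate 2, UNKC replicate 1 or either normal replicate (adjusted p between 0.0536 and 0.138).

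**Figure D4:**
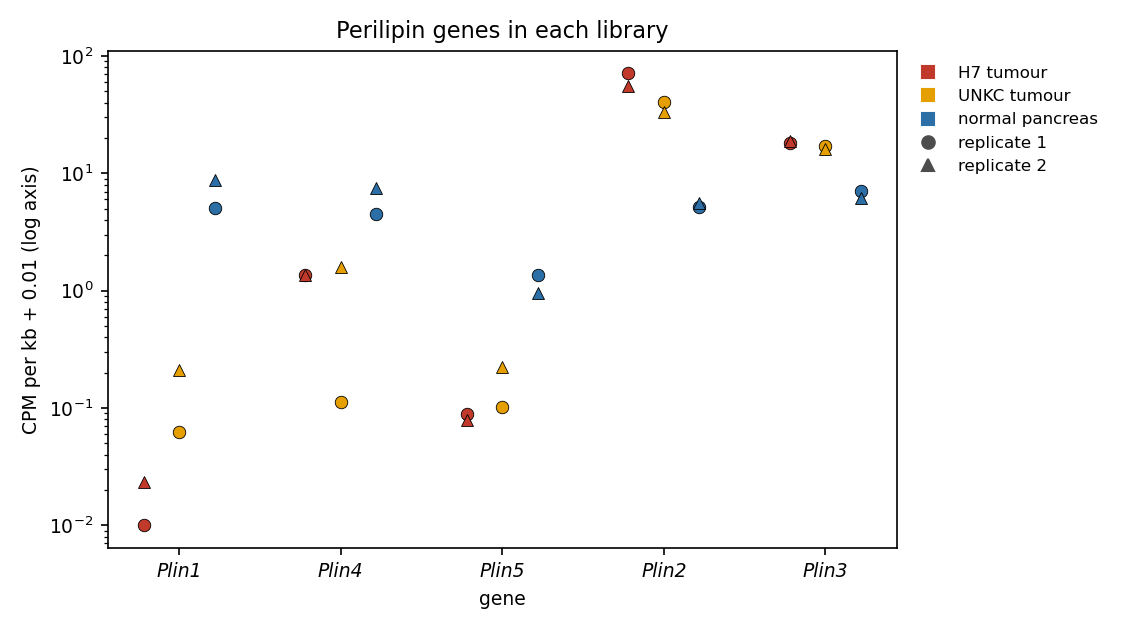
The 5 perilipin genes in each library, as CPM per kb of gene length + 0.01 on a log axis, with circles for replicate 1 and triangles for replicate 2. Plin1, Plin4 and Plin5 lie lower in the tumours than in normal pancreas, and Plin2 and Plin3 lie higher, while with total counts as library sizes Plin4 in both tumour groups and Plin5 in UNKC tumours turn higher too.

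In the wider lipid lists some genes rose and others fell. Of 20 tested genes of lipid storage and lipolysis, 5 rose and 9 fell in H7 tumours, while 3 rose and 9 fell in UNKC tumours (median log2 fold changes −0.73 and −0.84). Over all genes 29.6% rose and 21.9% fell in H7 tumours, and 29.1% rose and 19.3% fell in UNKC tumours. Mgll, monoglyceride lipase, fell by 4.07 ± 0.43 in H7 tumours (adjusted p = 0.00076) and had −1.79 ± 0.40 in UNKC tumours (adjusted p = 0.0122). Acsl1, which activates fatty acids, fell by 3.18 ± 0.43 (adjusted p = 0.00183) and had −2.40 ± 0.42 in UNKC tumours (adjusted p = 0.0049). With total counts as library sizes, Mgll in UNKC tumours and Acsl1 in both turned positive. The Mgll call in UNKC tumours was lost without UNKC replicate 1 (adjusted p = 0.0708) and when normal replicate 2 was left out (adjusted p = 0.0618). Of 10 genes of fatty acid synthesis, 3 rose and 3 fell in H7 tumours, while 4 rose and 5 fell in UNKC tumours (median 0.22 and 0.02). The stearoyl-CoA desaturases went apart, with Scd1 at 63.3 ± 6.64 CPM in H7 tumours and 38.5 ± 10.1 CPM in UNKC tumours, against 832 ± 76.6 CPM in normal pancreas, and Scd2 at 436 ± 84.8 CPM in H7 tumours and 285 ± 4.13 CPM in UNKC tumours, against 36.5 ± 9.85 CPM in normal pancreas (SD, n = 2 each). All 4 of these differences passed the test, with adjusted p between 0.000149 and 0.000334.

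PPARγ acts with other adipogenic transcription factors. Of 12 tested, 2 rose and 7 fell in H7 tumours, while 2 rose and 5 fell in UNKC tumours (median −2.61 and −0.96). Among all genes 29.6% rose and 21.9% fell in H7 tumours, and 29.1% rose and 19.3% fell in UNKC tumours. The higher ones were Cebpb and Cebpd, early C/EBP factors that inflammatory signals also induce, which rose by 3.32 ± 0.23 and 2.29 ± 0.22 on the log2 scale in H7 tumours (adjusted p = 0.000216 and 0.000563) and by 2.46 ± 0.23 and 1.96 ± 0.22 in UNKC tumours (adjusted p = 0.000554 and 0.00103). Klf15, a factor of late fat cell differentiation, had 0 and 0.154 CPM in H7 tumours and 0.133 and 0.949 CPM in UNKC tumours, against 41.7 and 76.3 CPM in normal pancreas. It fell by 9.48 ± 1.33 in H7 tumours (adjusted p = 0.00202) and had −6.77 ± 1.12 in UNKC tumours (adjusted p = 0.00401). Ppargc1a, a coactivator of PPARγ and of mitochondrial genes, fell by 6.70 ± 0.45 in H7 tumours (adjusted p = 0.000201).

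Adipokines act through receptors on other cells. Of the 4 adipokine receptors, 3 rose and 1 fell in H7 tumours, and 4 rose in UNKC tumours. The shares over all genes, for this list and the other adipokines below, were 29.6% higher and 21.9% lower in H7 tumours. They were 29.1% higher and 19.3% lower in UNKC tumours. Lepr, the leptin receptor, was at 1.35 and 2.23 CPM in H7 tumours and 83.2 and 75.9 CPM in UNKC tumours, against 4.17 and 16.2 CPM in normal pancreas. H7 tumours thus lay below and UNKC tumours above normal pancreas, with no overlap. Lepr fell by 2.50 ± 0.57 on the log2 scale in H7 tumours (adjusted p = 0.0125), where total counts as library sizes gave 0.70, rose by 2.97 ± 0.55 in UNKC tumours (adjusted p = 0.00594), and came to −5.47 ± 0.56 between H7 and UNKC tumours (adjusted p = 0.00266). The H7 call against normal pancreas was lost without H7 replicate 1 (adjusted p = 0.0887) and again when normal replicate 2 was left out (adjusted p = 0.0836), and the call between the tumours without H7 replicate 1 (adjusted p = 0.058). Cdh13, a cell surface receptor that binds adiponectin multimers, rose by 3.97 ± 0.28 in H7 tumours (adjusted p = 0.000227) and by 4.13 ± 0.28 in UNKC tumours (adjusted p = 0.00022). Nampt, an enzyme of NAD synthesis that fat also secretes, rose by 2.62 ± 0.24 in H7 tumours (adjusted p = 0.000472) and 1.97 ± 0.24 in UNKC tumours (adjusted p = 0.00127), among 7 tested other adipokines with 2 higher and 3 lower in H7 tumours, and 1 higher and 2 lower in UNKC tumours.

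Markers of other cells that could lie in these samples moved between the groups too. Of 6 mesothelial markers, 1 rose and 5 fell in H7 tumours, and 1 rose and 2 fell in UNKC tumours (median log2 fold changes −4.95 and −1.84). Beside these and the B cell counts below, 29.6% of all genes rose and 21.9% fell in H7 tumours. In UNKC tumours 29.1% of all genes rose and 19.3% fell. The mesothelial gene that rose was Msln, mesothelin, which pancreatic cancer cells can express too, and which is named here after its values were seen. Msln made up most of the mesothelial sums in the tumours, with 45.5 and 56.1 CPM of 45.9 and 57.1 CPM in H7 tumours. In UNKC tumours it had 74.9 and 87.6 CPM of 81.2 and 96.8 CPM, against 0.926 and 2.86 CPM of 24.5 and 40.1 CPM in normal pancreas. The other mesothelial markers were thus, like the adipocyte genes, lower in H7 tumours. B cell markers summed to 1.36 and 1.08 CPM in H7 tumours and 6.50 and 2.10 CPM in UNKC tumours, against 35.6 and 54.4 CPM in normal pancreas, and 7 of 7 fell in H7 and 6 of 7 in UNKC tumours. B cell and adipocyte sums were therefore both highest in normal pancreas. The same held for acinar markers and for islet markers, which summed to 618 and 282 CPM in normal pancreas. In the tumours the islet sums were 10.5 and 63.5 CPM (H7) and 43.4 and 14.0 CPM (UNKC). The part of these cells in the adipocyte values was not tested.

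**Figure D5:**
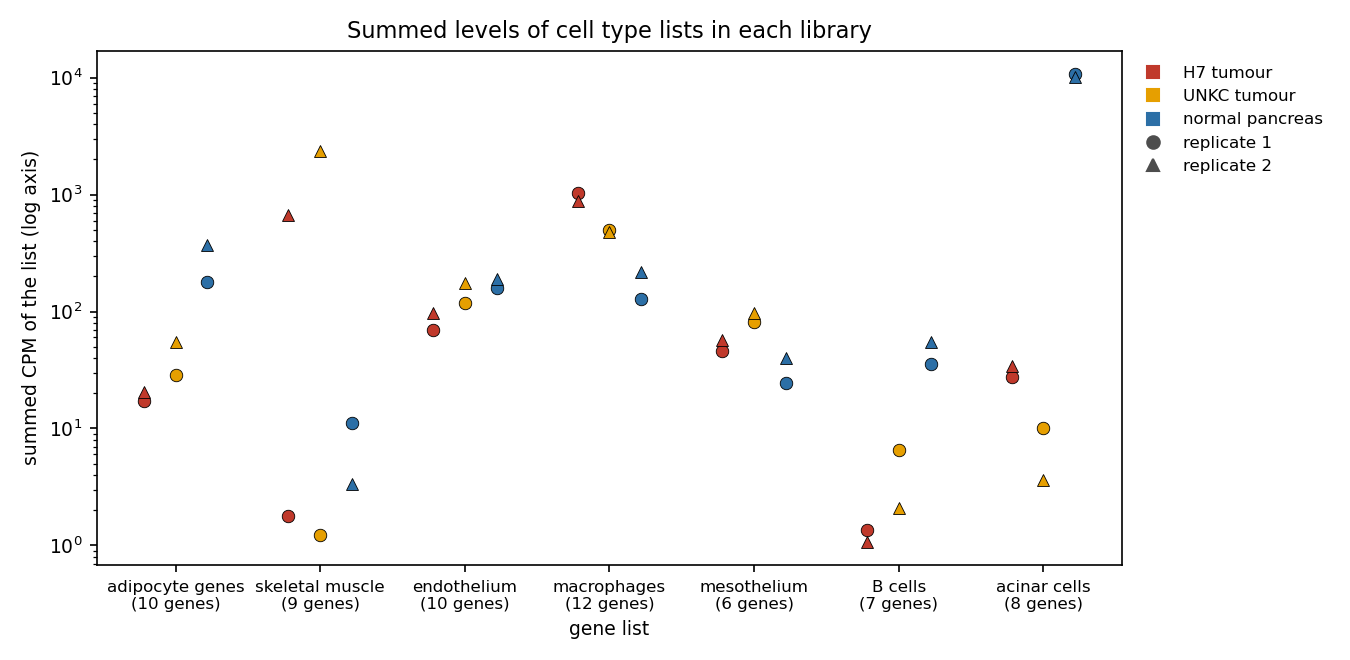
Summed CPM of the 10 adipocyte genes and of marker lists of 6 other cell types in each library, on a log axis, with circles for replicate 1 and triangles for replicate 2. Muscle markers stand out in replicate 2 of both tumour groups, while the adipocyte sum is highest in the 2 normal samples. The mesothelium sum of the tumours is mostly Msln.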

How the data were processed

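RNA of 6 samples was compared in 3 groups of n = 2. Per the submitters' processing notes, the build was mm10 and the tools STAR, featureCounts and DESeq2 1.18.1. The deposited counts are whole-number reads per gene. The authors' 2 comparison tables hold deposited fragment counts, TPM computed from counts and gene length, log2 fold changes and p-values from which only the authors' values named as such were taken. Both mates of a read pair were counted in the per-sample values.

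Genes were tested with edgeR 4.0.16 (quasi-likelihood, legacy = FALSE, TMM, filterByExpr, R 4.3.3) on all 6 libraries, and every adjusted p not credited otherwise is from it, with Benjamini-Hochberg correction over 16306 genes and a threshold of 0.05. The test was also run on simulated counts with changes planted in H7 tumours. All groups there shared the same mean for every other gene, so it did not probe scaling between groups of unlike RNA make-up. Of 16 other settings, 1 used DESeq2 1.42.0, and 1 more, with non-ribosomal reads as library size, was chosen after seeing the data. A group without reads had a floor of 3 read pairs (6 reads), and its bounds, like the intervals, cover counting error alone. Correlations used log2 CPM with a prior count of 2. Python 3.11.15, SciPy 1.17.1 and matplotlib 3.10.9 gave intervals and figures. The 10 genes and all lists were chosen with earlier results of these data known. From each fat list, up to 2 genes with the largest rise and 2 with the largest fall per comparison, past the threshold and at 5 CPM or more, could be named. Replicate numbers do not pair samples in the labels and were used as names.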

Additional observations from a re-analysis of the deposited data

Results flagged for a closer look

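Fabp4 and Pparg differed between the 2 tumour kinds relative to the same normal pancreas. The log2 fold change of Fabp4 between H7 and UNKC tumours was −2.09 and that of Pparg −1.81, by the direct edgeR test, which equals the test of the difference of their changes from normal pancreas. Pparg was 0.01 in H7 tumours and 1.82 in UNKC tumours against normal pancreas, whereas Fabp4 fell in both, with −5.14 in H7 tumours and −3.05 in UNKC tumours.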

How the results depend on the processing

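Normal libraries were mostly ribosomal RNA, which makes the scaling matter. With total counts as library sizes the median log2 fold change of all genes was 3.61 in H7 and 3.77 in UNKC tumours, against 0.34 and 0.42 with TMM, and 96.0% and 97.7% of called genes were higher, against 57.4% and 60.1%. Upper-quartile factors moved these shares to 46.0% and 48.2%. With non-ribosomal reads as library size the medians were 0.33 and 0.38. That setting left out Lars2 and a further gene besides the ribosomal RNA genes, which left 780779 and 699044 reads in normal pancreas. Under total counts 1 of the 10 genes was higher in H7 tumours and 7 were lower, where 12710 of all genes were higher and 524 lower. In UNKC tumours 2 of the 10 were lower, where 312 of all genes were. Between the tumours 1 of the 10 was lower in H7 tumours, where 1489 of all genes were. Directions reversed there for Plin4 in H7 (1.08) and UNKC tumours (0.47), Fabp4 (0.21) and Lpl (1.05) in UNKC tumours, Acsl1 in H7 (0.036) and UNKC tumours (0.88), Lepr in H7 tumours (0.70), and Plin5 (0.47), Mgll (1.53) and Ppargc1a (1.12) in UNKC tumours. Pparg in H7 tumours, near 0, became −0.15 with RLE factors and with DESeq2, −0.35 with upper-quartile factors and without H7 replicate 1, −0.10 with 4 libraries, −0.17 with the authors' fragment counts, −0.051 with halved counts and −0.50 without normal replicate 1. Upper-quartile factors left 0 genes higher in UNKC tumours, where Pparg came to 1.46 (adjusted p = 0.0606).

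DESeq2 called 7 genes lower in H7 than in UNKC tumours, against 2 with edgeR, and 5409 of all genes, against 2960. Same-numbered replicates of H7 and UNKC tumours deviated together (r = 0.526), but not with normal ones (−0.0122 and −0.0232), and the labels name no shared animal or day, so the numbers were not taken to pair the samples, which 2 replicates cannot settle between the tumours. A fit with the replicate number as a block called 7 of the 10 lower in H7 than in UNKC tumours, where 12.5% of all genes were, and Pparg in H7 tumours was −0.032 there. Leaving out 1 library gave 4 to 9 genes lower and 0 to 1 higher in UNKC tumours, and 0 to 4 lower and 0 to 1 higher in H7 than in UNKC tumours. Between the tumours it gave −0.23 (without UNKC replicate 1) to 3.71 for Plin4, −2.42 to 0.58 for Acvr1c and −0.63 to 0.23 for Lgals12, with the highest value of each without UNKC replicate 2. Without both tumour replicates 2, which leaves 1 library in each tumour group, edgeR called 0 genes in any comparison, of the 10 or of all. At an unadjusted p under 0.05, that fit had 9 of the 10 lower in H7 tumours (18% of all genes), 9 lower and 1 higher in UNKC tumours (16.3% and 20.7%), and 1 lower and 1 higher in H7 than in UNKC tumours (9.86% and 4.66%), and Lgals12 between the tumours was 0.38. Of 488 values of the 10 genes under the alternatives, 404 kept direction and side of the threshold. Lep rests on 22 and Pparg on 14 reads in normal pancreas.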

Other observations

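Of 8 brown fat genes, 4 passed the filter on low counts. Ucp1, the uncoupling protein of brown fat, had 2 and 0 reads in H7 tumours and 2 and 8 reads in UNKC tumours, against 0 and 0 reads in normal pancreas. In this list 0 genes were called in H7 tumours by edgeR, where 1 was lower at an unadjusted p under 0.05, and 1 was lower in UNKC tumours. Among all genes 29.6% rose and 21.9% fell in H7 tumours, and 29.1% rose and 19.3% fell in UNKC tumours. Fibroblasts and other mesenchymal cells also express the 7 genes listed for adipose progenitors. Of these 7, 3 rose and 2 fell in H7 tumours, and 2 rose and 2 fell in UNKC tumours. Their summed level was 230 and 218 CPM in H7 tumours and 223 and 185 CPM in UNKC tumours, against 90.3 and 99.7 CPM in normal pancreas. Most of the H7 sums was Pdgfra, at 165 and 102 CPM, and Ly6a, at 36.4 and 79.8 CPM. In UNKC tumours Ly6a was at 132 and 90.7 CPM. Cd34 and Dpp4 fell in both tumour groups. The list was thus mixed, with a median log2 fold change of 0 in H7 tumours, with genes without reads at their bound, and 0.42 in UNKC tumours.

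The per-sample counts of Lpl were 1.36 to 1.45 times the authors' fragment counts in all 6 libraries, whereas the median over genes was 1.98 to 2.00.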
